A study of Acomys cahirinus and Mus musculus with 6 samples.

Results

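Copying the genome before division takes a dedicated set of proteins, and the 39 genes described here encode a broad sample of them. The set was chosen by name as genes of S phase and DNA replication, out of 20381 genes in the table, with earlier results of these data known. All 39 had at least 1 UMI (unique molecular identifier, a tag that marks 1 captured RNA molecule) in every one of the 6 libraries. The spread was wide: in the DMSO library the counts ran from 107 UMIs for Mcm10 to 10342 for Lig1, with a median of 1769, and in the smallest library from 7 UMIs for Mcm10 to 679 for Dut, with a median of 132. All 39 are protein-coding genes in the mouse annotation and lie on 16 chromosomes.

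The cells came from ear pinna skin around healing punch wounds, profiled by droplet single-cell RNA sequencing with 1 library per group. Wild-type spiny mice (Acomys cahirinus), rodents known for regrowing ear tissue, gave 4 libraries, injected from day 12 to day 15. The injections held DMSO, the solvent, in the first library, an inhibitor of the kinase ERK in the second, one of the receptor ErbB2 in the third and one of the receptors FGFR1/2/3 in the fourth. CD1 laboratory mice (Mus musculus) gave 2 libraries, from ears in which beads were placed on day 10: 1 library with PBS beads, the buffer control, and 1 with beads that carried both FGF2 and NRG1. The inhibitors reached the whole animal rather than a chosen cell type, and how many animals stand behind a library is not given in the sources used here. With 1 library per group no test was possible, so every interval printed below is a 95% interval of counting error only, and every difference is between libraries.

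DNA replication starts at origins that are loaded with the MCM helicase by the licensing factors Cdc6 and Cdt1. The helicase is switched on together with Cdc45 and the GINS proteins, primase and the DNA polymerases then copy the strands, and the ring-shaped clamp PCNA, loaded by the RFC complex, keeps the polymerases in place. The genes are held off by the retinoblastoma proteins in resting cells and are driven by E2F factors once cyclin E activity rises at the border of G1 and S phase. In skin the dividing keratinocytes sit in the basal layer of the epidermis, and cells leave the cycle as they move up into the suprabasal layers.

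Library sizes ranged from 7429819 UMIs in 631 cells with the ERK inhibitor to 70058081 UMIs in 15363 cells with DMSO, and the median depth per cell from 3125 UMIs with DMSO to 6915 with the ERK inhibitor. Of 39393 distinct barcode sequences, 184 occurred in 2 libraries. Levels are given as CPM, the UMIs of a gene or list per 1000000 UMIs of the library or class. The members summed to 1459 CPM in the DMSO library and to between 971 and 1035 CPM in the 3 inhibitor libraries, and to 985 CPM with PBS beads and 924 with FGF2 and NRG1 beads. These whole-library levels mix all cell types, and the mix differs. Cells annotated as basal made up 35.5% of the DMSO library, 21.7 to 27.6% of the inhibitor libraries, 19.2% with PBS beads and 10.8% with FGF2 and NRG1 beads. That minority held 65% of all member UMIs with DMSO, 54.5 to 68.1% with the inhibitors, 61% with PBS beads and 44% with FGF2 and NRG1 beads.

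Basal keratinocytes carried the highest summed member level of all types with at least 30 cells in 5 of the 6 libraries. Their level was 2555 CPM (95% interval 2535 to 2575) with DMSO, 2275 (2212 to 2339) with the ERK inhibitor, 2096 (2073 to 2120) with the ErbB2 inhibitor and 1974 (1947 to 2002) with the FGFR inhibitor. In the mouse it was 1802 CPM (1771 to 1835) with PBS beads and 2123 (2082 to 2165) with FGF2 and NRG1 beads, where cluster 23 stood at 2335 (1961 to 2761). The authors annotated that cluster as unknown; haemoglobin genes led it, and its 59 cells there had a median of only 933 UMIs. Suprabasal keratinocytes were among the lowest, at 468, 334, 292 and 277 CPM in the same order of spiny mouse libraries and at 469 and 477 CPM in the mouse. Cells of the inner root sheath, a differentiated hair follicle layer annotated as IRS, were lower still where at least 30 of them were present, at 356 CPM with DMSO, 319 with PBS beads and 262 with FGF2 and NRG1 beads. The class of keratinocytes follows the authors' interfollicular labels without 5 clusters. Their 10 leading genes held more markers of another marker list than of the keratinocyte lists, in clusters 44 and 46 by 1 marker against 0. Cluster 9 was also led by the keratin genes Krt16, Krt6a and Krt1, so the cells left out can include keratinocytes. The rule left out 22.3% of interfollicular cells with the ErbB2 inhibitor, 13.1% with DMSO and 3.99 to 14.1% in the other libraries. Of the keratinocytes kept, 98.1 to 100% per library had more UMIs of keratinocyte markers than of any other marker list compared.

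**Figure D1:**
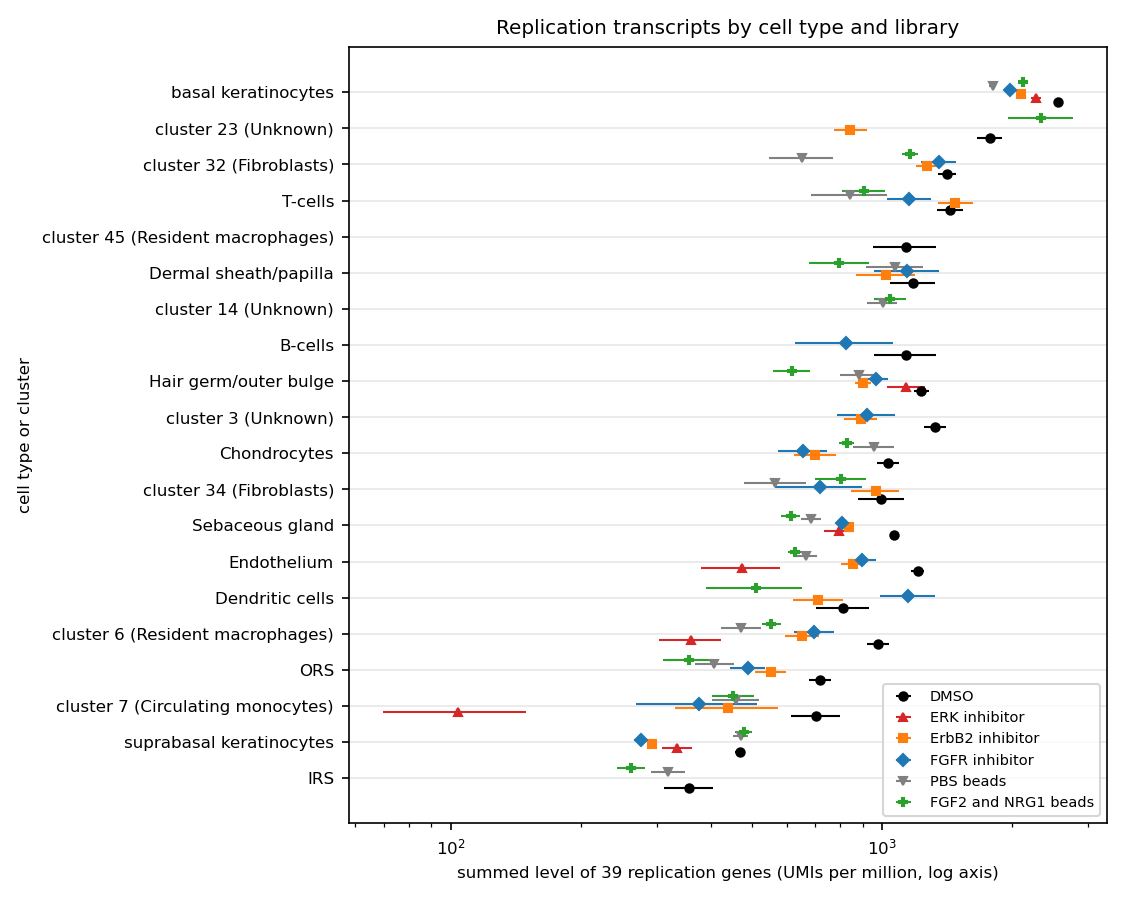
Summed level of the 39 replication genes, in CPM on a log axis, for each cell type or cluster (rows) and library (colours and marker shapes), for types with at least 30 cells in that library; bars are 95% counting intervals, and names in brackets are the authors' labels of clusters shown by number. Basal keratinocytes lie between 1802 and 2555 CPM, suprabasal keratinocytes between 277 and 477 CPM.

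Other types fell between these ends. T-cells held 1436 CPM (1342 to 1535) with DMSO, 1476 (1343 to 1619) with the ErbB2 inhibitor, 1156 (1026 to 1299) with the FGFR inhibitor, 843 (684 to 1027) with PBS beads and 906 (806 to 1015) with FGF2 and NRG1 beads. Fibroblasts of cluster 32 held 1412, 1268 and 1354 CPM with DMSO, the ErbB2 inhibitor and the FGFR inhibitor, and 651 and 1159 CPM with PBS beads and with FGF2 and NRG1 beads. Sebaceous gland cells, the lipid-secreting cells of the hair follicle, held 1066 CPM with DMSO and 614 to 836 elsewhere. Endothelium, the lining of blood vessels, held 1209 CPM with DMSO and 472 to 898 elsewhere. Keratin and other keratinocyte marker UMIs were also more frequent in endothelium with DMSO (3.18% of its UMIs) and with the ErbB2 inhibitor (3.06%) than with the FGFR inhibitor (1.20%) or the ERK inhibitor (0.258%), and their part in the member level was not tested.

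Taken gene by gene, basal keratinocytes were the type with the highest level for 23 of 39 members with DMSO and for 26 of 39 with PBS beads. The remaining members had their highest level in types that rested on few UMIs, at most 22 in the DMSO library apart from 2 exceptions. Rrm1, a subunit of ribonucleotide reductase, which makes the DNA building blocks, was highest in sebaceous gland cells at 112 CPM (945 UMIs) against 71.8 CPM in basal keratinocytes. Rfc4, a clamp loader subunit, was at 112 CPM (55 UMIs) in cluster 23 against 103 CPM in basal keratinocytes.

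Counts per cell show how the basal layer divides into cells with many and with few replication transcripts. Each cell was thinned to 2000 UMIs, leaving out shallower ones, and was called replication-high at 8 or more member UMIs. This cutoff marks a range rather than a type: in the DMSO library 434 basal cells lay near it. With DMSO 986 of 4355 basal keratinocytes were replication-high, or 22.6% (21.4 to 23.9%). The share was 14% with the ErbB2 inhibitor (302 of 2152 cells) and 14.2% with the FGFR inhibitor (164 of 1156). The ERK inhibitor library gave 19.8% of only 116 cells (13 to 28.3%). PBS beads gave 14.9% of 482 cells (11.9 to 18.4%) and FGF2 and NRG1 beads 16% of 437 cells (12.7 to 19.8%).

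Suprabasal keratinocytes had hardly any replication-high cells: 1 of 2050 with DMSO, 0 of 89 with the ERK inhibitor (which allows up to 3.37%), 0 of 1726 with the ErbB2 inhibitor (up to 0.174%), 1 of 848 with the FGFR inhibitor, and 2 of 402 and 2 of 363 in the mouse. With the suprabasal clusters left out counted too, the authors' suprabasal label held 7 replication-high cells with DMSO. It then held 3 with the ErbB2 inhibitor and 3 with the FGFR inhibitor. The suprabasal cells kept serve as the background beside which the basal shares stand, at median depths before thinning of 5422 UMIs per suprabasal and 3710 UMIs per basal cell with DMSO. Outside the epidermis the shares were small but not 0 in several types. With DMSO they were 9.89% of 91 T-cells, 5.09% of 1021 sebaceous gland cells, 4.96% of 423 endothelial cells, 3.91% of 358 hair germ and outer bulge cells and 3.85% of 156 fibroblasts of cluster 32. Only cells with at least 2000 UMIs were counted. These were 91 of 332 T-cells, 423 of 977 endothelial cells and 1021 of 1404 sebaceous gland cells. They were 358 of 923 hair germ and outer bulge cells and 156 of 161 fibroblasts, against 4355 of 5098 basal keratinocytes. The shares therefore do not stand for all cells of a type. The outer root sheath (ORS) and the inner root sheath had no replication-high cells in any library with at least 30 deep cells.

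Set against the DMSO library, the share of replication-high basal cells was 0.62 times as large with the ErbB2 inhibitor, a log2 ratio of -0.69 (-0.86 to -0.52). With the FGFR inhibitor it was 0.627 times as large, a log2 ratio of -0.67 (-0.89 to -0.46). Both intervals lie below 0. With the ERK inhibitor the log2 ratio was -0.19 (-0.73 to 0.34), and with FGF2 and NRG1 beads against PBS beads it was 0.10 (-0.34 to 0.54). Both of these intervals include 0. A looser cutoff of 5 UMIs gave intervals clear of 0 for both, at -0.61 (-1.04 to -0.18) with the ERK inhibitor and 0.46 (0.14 to 0.78) with the beads, while a cutoff of 12 gave 0.27 (-0.52 to 1.05) and -0.11 (-0.84 to 0.62). The 3 inhibitor libraries share the DMSO library as their control, so their differences are not independent.

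A second list, of 40 mitosis genes, was counted in the same way to place the cells in the cycle. It holds genes of the spindle and of chromosome separation, which are transcribed mainly in G2 and mitosis, after replication. With DMSO 10.6% of basal cells were high in replication genes only, 12.1% in both lists and 20.6% in mitosis genes only. The ErbB2 inhibitor library had 6.18, 7.85 and 9.80% in these states, and the FGFR inhibitor library 6.66, 7.53 and 13.3%. All 3 states were thus less frequent in both than with DMSO, and the intervals of each state do not overlap those of DMSO.

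The ERK inhibitor library had another balance: 9.48% high in replication genes only (4.83 to 16.3%), 10.3% in both and 6.90% in mitosis genes only (3.02 to 13.1%). Its mitosis-only interval lies wholly below that of DMSO (19.4 to 21.8%), while its interval for replication genes only includes the DMSO value. Its basal cells were also much deeper before thinning, with a median of 15635 UMIs against 3710 with DMSO, and only 125 were present. In the mouse the 3 shares were 8.92, 6.02 and 14.5% with PBS beads and 6.64, 9.38 and 17.4% with FGF2 and NRG1 beads, and the intervals of every state overlap between these libraries.

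**Figure D2:**
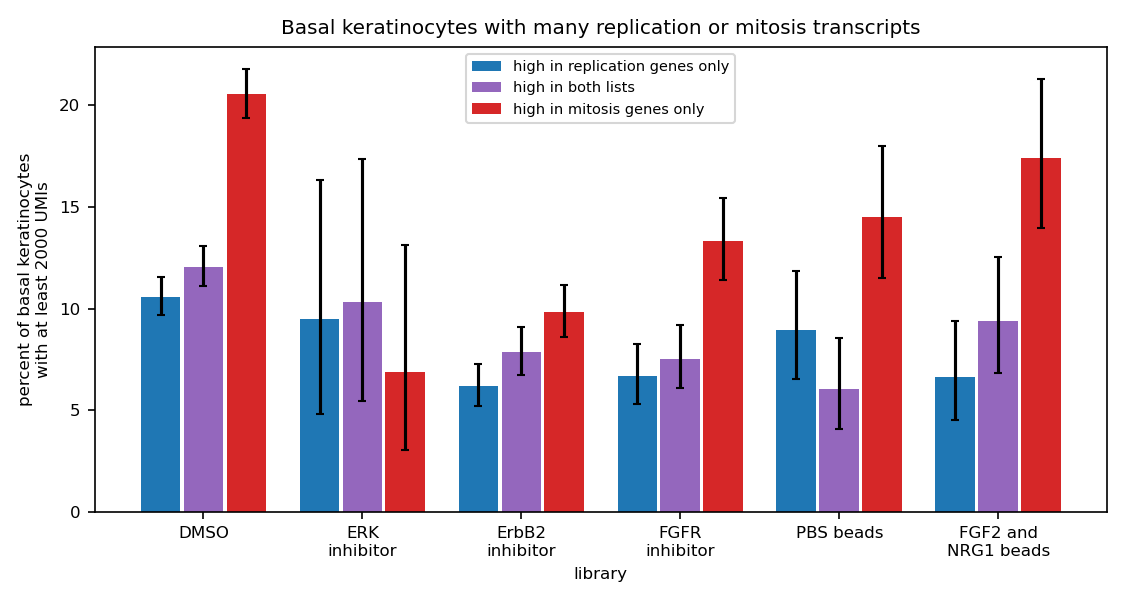
Percent of basal keratinocytes with at least 2000 UMIs that were high (8 or more UMIs of 2000) in replication genes only, in both lists or in mitosis genes only, by library; error bars are 95% Clopper-Pearson intervals. The mitosis-only bar stands at 20.6% with DMSO and 6.90% with the ERK inhibitor, while the replication-only bars stand at 10.6% and 9.48%.

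Among the basal clusters of the authors, replication genes were not confined to those labelled as cycling. Cluster 30 is labelled plainly as basal, and all 10 of its leading genes are members: Mcm5, Mcm6, Mcm4, Mcm3, Hells, Tk1, Clspn, Mcm2, E2f1 and Mcm7. Clusters are formed from the expression of these same genes, so their levels in it are a description and no test. Its member level was 4684 CPM with DMSO (445 cells), 4917 with the ErbB2 inhibitor (89 cells), 4221 with the FGFR inhibitor (62 cells), 4073 with PBS beads (41 cells) and 3936 with FGF2 and NRG1 beads (39 cells). Its mitosis level ran from 1133 to 3229 CPM.

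The 3 clusters labelled as cycling had more mitosis transcripts. Cluster 22 had 4086 to 4750 CPM of members, below cluster 30 with DMSO and the ErbB2 inhibitor and above it in the other 3 libraries, with 9868 to 13584 CPM of mitosis genes. Cluster 19 had 2913 to 3877 CPM of members and 15072 to 17518 CPM of mitosis genes. Cluster 24 had only 1222 to 1555 CPM of members with 7413 to 8877 CPM of mitosis genes. Cluster 16, labelled basal, also held 1800 to 2684 CPM of members in the 3 libraries with at least 30 of its cells, and 22.5% of its deep cells with DMSO, 19.3% with the ErbB2 inhibitor and 10.4% with the FGFR inhibitor were replication-high.

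**Figure D3:**
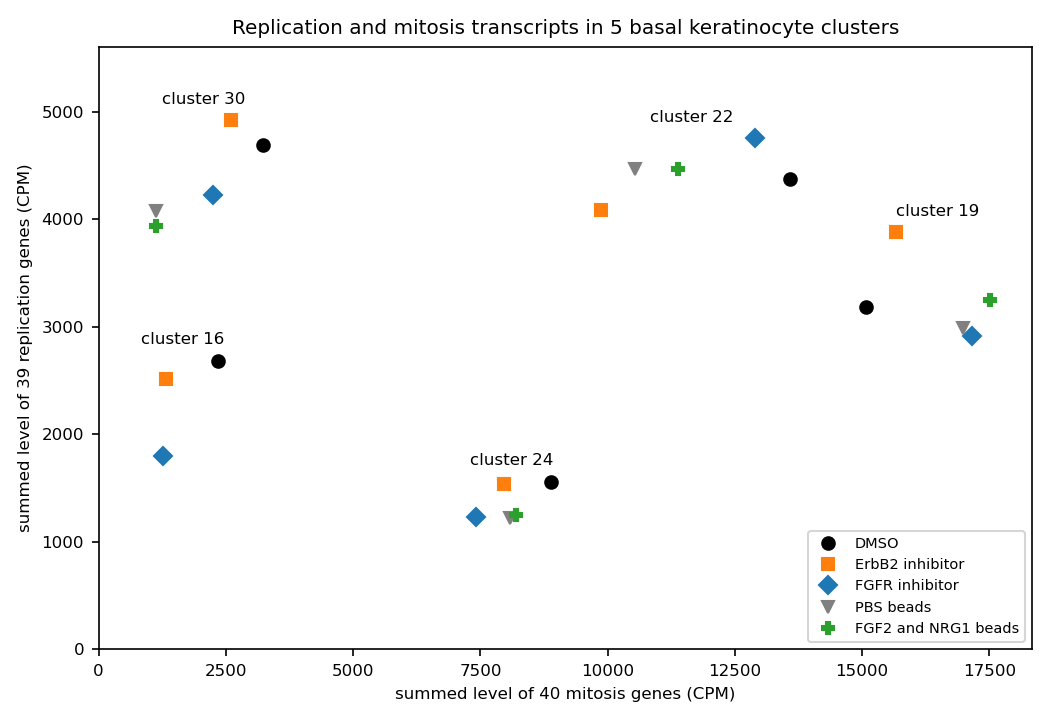
Summed level of 40 mitosis genes (x axis, CPM) against that of the 39 replication genes (y axis, CPM) in 5 basal keratinocyte clusters, 1 point per library with at least 30 cells of the cluster. Cluster 30 lies at 3936 to 4917 CPM of replication genes and 1133 to 3229 CPM of mitosis genes, away from the cycling clusters 22, 19 and 24.

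Replication-high cells were thus spread over both labels. In the DMSO library 52% of all replication-high cells were labelled as plain basal and 37.2% as cycling. In the other 5 libraries 18.5 to 29.8% were labelled plain basal and 54.6 to 62.5% cycling. Cluster 30 alone held 325 of the 986 replication-high basal cells with DMSO (33%), against 50 of 302 with the ErbB2 inhibitor (16.6%), 34 of 164 with the FGFR inhibitor (20.7%), 19 of 72 with PBS beads (26.4%) and 21 of 70 with FGF2 and NRG1 beads (30%).

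Members were compared between cluster 30 and cluster 22, a comparison that was chosen after the clusters had been seen. Of 33 members measured in both clusters of all 5 libraries, 20 had a median log2 ratio above 0, that is higher in cluster 30, and 13 below 0, and 6 were higher in cluster 30 in every library: the helicase subunits Mcm2, Mcm4, Mcm5 and Mcm6, the licensing factor Cdt1, and Slbp, which binds the messenger RNA of histones. The helicase subunits named are also among the leading genes of cluster 30, so their direction is a description and no test. For Mcm4 the log2 ratio ran from 0.34 to 0.83. Rrm1 was lower in cluster 30 in every library, from -1.12 to -0.27. The other 26 had both signs, among them Tyms and Atad2 with intervals wholly below 0 in 3 of the 5 libraries. No member had a counting interval clear of 0 in all 5 libraries.

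For the library comparisons, each member's level is its share of the UMIs of the class, and a log2 ratio was taken with 1 UMI added to each count. A member or gene was called at 1.5-fold where it had at least 30 UMIs over both libraries, which all 39 members reached in basal keratinocytes. Over the whole epidermis, basal and suprabasal cells together, 27 of 39 members were lower with the ErbB2 inhibitor and 0 higher, beside 13% and 7.01% of 11444 genes. With the FGFR inhibitor 26 were lower and 0 higher, beside 9.86% and 4.95% of 11213 genes. With the ERK inhibitor 7 were lower and 2 higher, beside 11.8% and 11.6% of 10862 genes. With FGF2 and NRG1 beads 0 were lower and 4 higher, beside 3.82% and 4.36% of 11915 genes.

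The median log2 ratios of the members in the whole epidermis were -0.67 with the ErbB2 inhibitor, -0.67 with the FGFR inhibitor, -0.32 with the ERK inhibitor and 0.25 with FGF2 and NRG1 beads, while those of all genes were -0.09, -0.08, 0.01 and -0.01. All 39 members were below 0 with the FGFR inhibitor, 37 with the ErbB2 inhibitor, 35 with the ERK inhibitor and 4 with FGF2 and NRG1 beads. The mix of layers moved with this: basal cells made up 69.4% of epidermal keratinocytes with DMSO and 50.2 to 55.2% with the 3 inhibitors, and 54.3% and 53.5% in the mouse libraries. With basal and suprabasal cells weighted as in DMSO, the medians were -0.37 with the ErbB2 inhibitor, -0.38 with the FGFR inhibitor and -0.17 with the ERK inhibitor. The counts of lower members were then 2, 6 and 3. With every cluster weighted as in its control library, the medians were -0.17, -0.32 and -0.0148 for these 3 inhibitors and 0.12 for the beads. Some clusters are formed from these same genes, so this weighting can also take out a difference in the number of replicating cells. With every cell counted equally, they were -0.58 for the ERK inhibitor and 0.0473 for the beads.

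Within basal keratinocytes few members passed 1.5-fold. The ErbB2 inhibitor library had 1 member lower and 0 higher, beside 7.29% and 7.54% of 10803 genes. The FGFR inhibitor library had 4 lower and 0 higher, beside 6.74% and 3.91% of 10586 genes. The ERK inhibitor library had 2 lower and 3 higher, beside 11.1% and 14.6% of 10254 genes. FGF2 and NRG1 beads had 0 lower and 3 higher, beside 4.12% and 4.15% of 10875 genes.

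Small shifts in 1 direction were more common there. The median log2 ratio was -0.32 with the ErbB2 inhibitor (32 of 39 below 0, 26 with an interval wholly below 0), -0.36 with the FGFR inhibitor (38 below 0, 28 with the interval), and -0.14 with the ERK inhibitor (30 below 0, 9 with the interval). With FGF2 and NRG1 beads it was 0.23, with 3 below 0 and 19 with an interval wholly above 0. The medians of all genes in these comparisons lay between -0.01 and 0.05. When every cell counted equally instead of by its UMIs, the ErbB2 inhibitor median was -0.56 and 19 members were lower by 1.5-fold, and the FGFR inhibitor median was -0.45 with 8 lower. When each basal cluster was given its share in the control library, the medians were 0.00236 with the ERK inhibitor, -0.13 with the ErbB2 inhibitor (0 lower), -0.27 with the FGFR inhibitor (2 lower) and 0.0916 with the beads (1 higher). Because the basal clusters are formed partly from these same genes, fixing their shares can also take out a difference in the number of replicating cells. A median nearer to 0 was therefore partly set in advance.

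**Figure D4:**
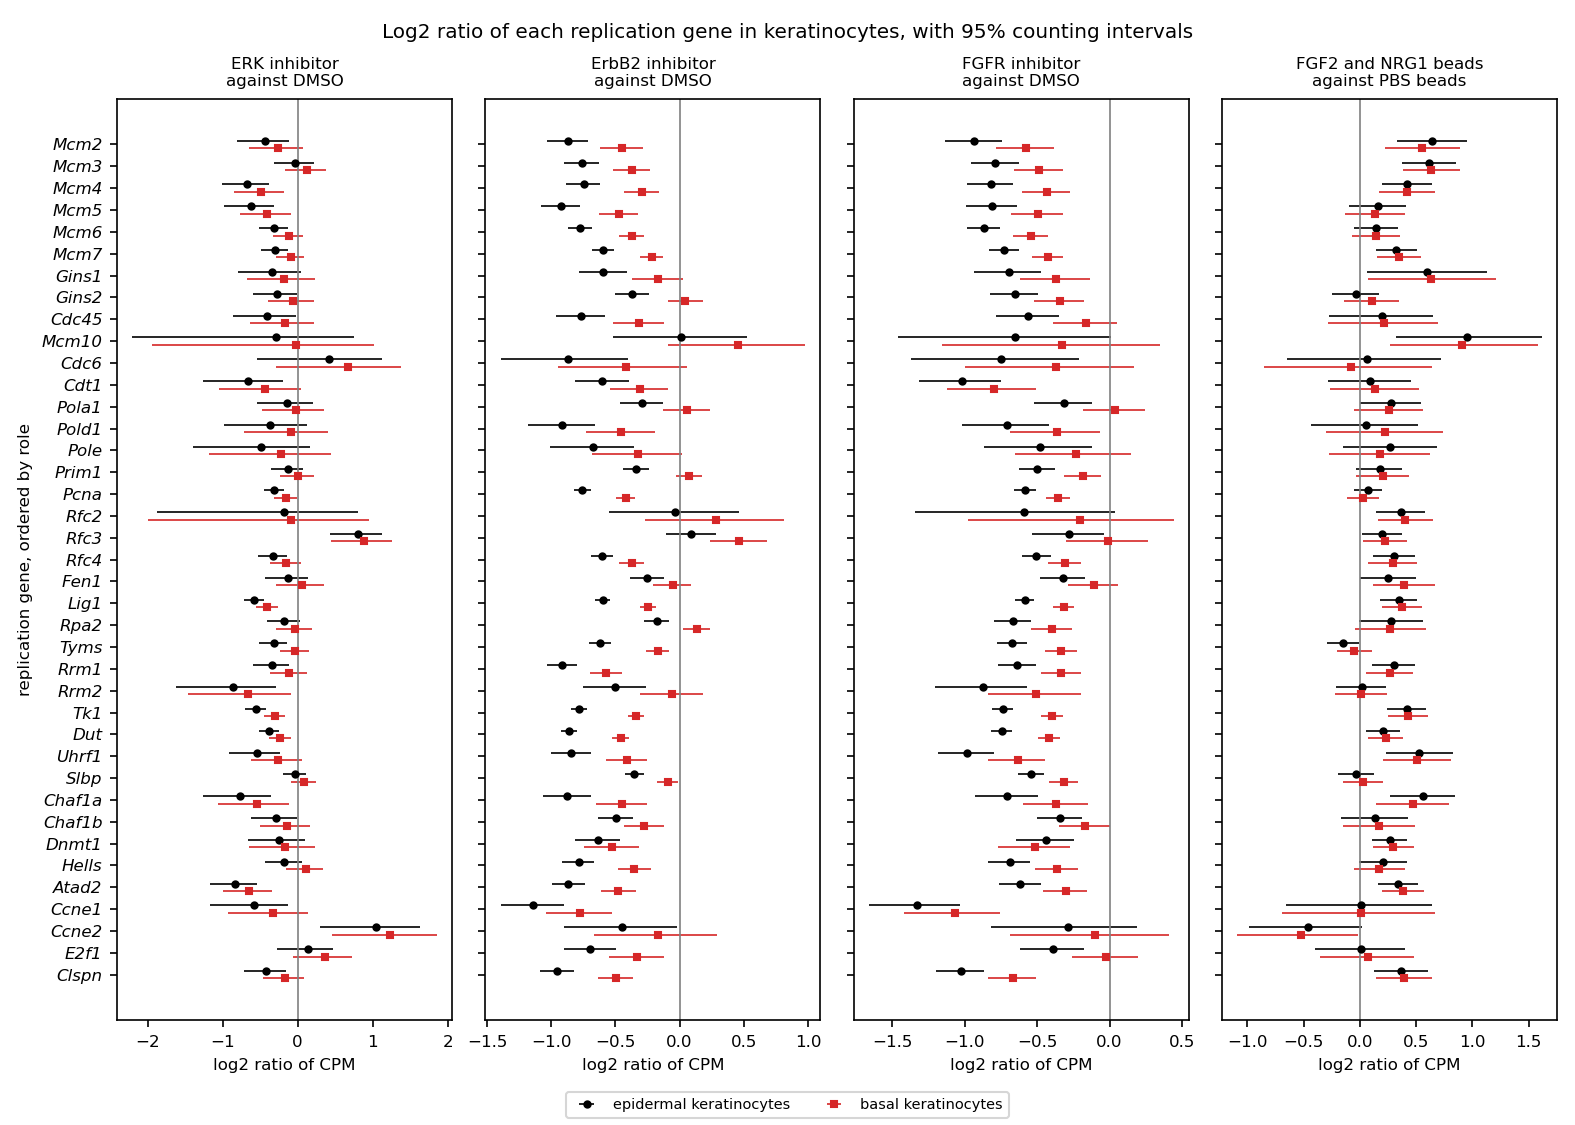
Log2 ratio of CPM (x axis) for each of the 39 replication genes (rows, ordered by role) in 4 library comparisons (panels), for all epidermal keratinocytes (black circles) and basal keratinocytes (red squares); bars are 95% counting intervals and x ranges differ between panels. With the ErbB2 and FGFR inhibitors the basal values lie closer to 0 than the epidermal ones, with medians of -0.32 against -0.67 and -0.36 against -0.67.

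Among the helicase genes, Mcm2 stood at 38.7 CPM in basal keratinocytes with DMSO, 31.9 with the ERK inhibitor, 28.2 with the ErbB2 inhibitor, 25.8 with the FGFR inhibitor, 21.98 with PBS beads and 32.2 with FGF2 and NRG1 beads. It was highest with DMSO among the spiny mouse libraries and higher with growth factor beads than without, with log2 ratios of -0.58 (-0.79 to -0.38) for the FGFR inhibitor and 0.55 (0.22 to 0.89) for the beads. Mcm3, another ring subunit, gave 51.2, 55.2, 39.5 and 36.4 CPM in the same order of spiny mouse libraries, and 35.9 and 55.8 CPM in the mouse. It was lower with the ErbB2 and FGFR inhibitors, at -0.37 and -0.49, whereas the interval for the ERK inhibitor, 0.12 (-0.17 to 0.38), includes 0. Mcm5 gave 46.3, 34.6, 33.3 and 32.8 CPM, so all 3 inhibitor libraries were below DMSO, and 40.3 and 44.3 CPM in the mouse. Over the 9 helicase genes, Cdc45 and the GINS subunits included, the medians in basal cells were -0.17, -0.32, -0.43 and 0.35 for the ERK, ErbB2 and FGFR inhibitors and the beads. Mcm6 gave -0.12, -0.37, -0.54 and 0.14 as log2 ratios, the first and last with intervals that include 0. Gins1 was at 11.9 CPM with growth factor beads and 7.62 with PBS beads, on 57 and 52 UMIs.

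The licensing genes are counted on few UMIs. Cdt1, which brings the helicase to origins and is destroyed once S phase begins, stood at 19.6 CPM with DMSO, 14.1 with the ERK inhibitor, 15.8 with the ErbB2 inhibitor and 11.2 with the FGFR inhibitor. The last is a log2 ratio of -0.80 (-1.12 to -0.51), among the lowest of the members in that comparison. In the mouse Cdt1 gave 18.5 CPM with PBS beads and 20.2 with growth factors. Cdc6, its partner in loading, had only 15 UMIs with the ERK inhibitor and 112 with DMSO, and the intervals of its log2 ratio included 0 in all 4 basal comparisons. Mcm10, which helps to start the helicase, had 48 UMIs with growth factors and 36 with PBS beads, or 9.99 against 5.27 CPM, a log2 ratio of 0.91 (0.27 to 1.59) and the highest of the 39 in that comparison.

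The polymerase and primase genes lay close to DMSO. Basal medians over Pola1, Pold1, Pole and Prim1 were -0.06, -0.13, -0.21 and 0.21 for the ERK, ErbB2 and FGFR inhibitors and the beads. Pola1, the catalytic subunit of the polymerase that starts each strand, was at 25.4, 24.6, 26.5 and 26.0 CPM in the spiny mouse libraries and 28.7 and 34.3 CPM in the mouse. All 4 of its basal log2 ratios have intervals that include 0. Pold1, of the lagging strand polymerase, gave -0.45 (-0.73 to -0.19) with the ErbB2 inhibitor.

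Of the clamp and its loader, Pcna was lower in the inhibitor libraries and close to level with the beads. It gave 200.02 CPM in basal cells with DMSO, 179 with the ERK inhibitor, 149 with the ErbB2 inhibitor, 156 with the FGFR inhibitor, 146 with PBS beads and 149 with growth factor beads. Its log2 ratios for the ERK, ErbB2 and FGFR inhibitors were -0.16, -0.42 and -0.36, with intervals below 0, and that for the beads was 0.03 (-0.11 to 0.17). The loader subunit Rfc3 differed. It was at 14.8 CPM with DMSO, 26.9 with the ERK inhibitor, 20.4 with the ErbB2 inhibitor and 14.6 with the FGFR inhibitor, so that 2 inhibitor libraries were above DMSO, by 0.88 (0.44 to 1.26) and 0.46 (0.24 to 0.68) on the log2 scale. Rfc4, of the same complex, gave -0.15, -0.38 and -0.31. Rfc2 had 5 to 71 UMIs in the basal cells of the spiny mouse libraries and 271 to 291 in the mouse, and no level is compared between the species.

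The genes that join lagging strand fragments or bind single-stranded DNA gave medians of -0.04, -0.06 and -0.32 with the inhibitors and 0.37 with the beads. Lig1, the ligase that seals them, was at 252 CPM with DMSO, 190 with the ERK inhibitor, 213 with the ErbB2 inhibitor and 203 with the FGFR inhibitor, lower in all 3 with intervals below 0, and at 78.4 and 102 CPM in the mouse. Fen1, the flap nuclease of the same step, had intervals that include 0 with all 3 inhibitors and was higher with growth factor beads, by 0.40 (0.12 to 0.67). Rpa2, a subunit of the single-strand binding complex, was at 72.6, 70.2, 79.6 and 55.0 CPM in the spiny mouse libraries, higher than DMSO with the ErbB2 inhibitor and lower with the FGFR inhibitor.

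Nucleotide supply genes were lower with the inhibitors by basal medians of -0.23, -0.34 and -0.40, and higher with the beads by 0.23. Rrm2, the ribonucleotide reductase subunit that is made in S phase, stood at 15.2 CPM with DMSO, 9.12 with the ERK inhibitor (20 UMIs), 14.5 with the ErbB2 inhibitor and 10.6 with the FGFR inhibitor. In the mouse it was 55.4 and 55.8 CPM, a log2 ratio of 0.01 (-0.22 to 0.24). Tyms, which makes thymidylate, gave 114, 111, 101 and 90.6 CPM in the spiny mouse and 125 and 121 CPM in the mouse. Tyms and Rrm2 were thus among the members that the growth factor beads did not show higher, whereas Tk1, the salvage enzyme for thymidine, was at 75.5 CPM with PBS beads and 102 with growth factors. Rrm1 was lowest with the ErbB2 inhibitor, at 48.3 CPM against 71.8 with DMSO, a log2 ratio of -0.57 (-0.70 to -0.45). Dut, which keeps uracil out of DNA, gave 233, 198, 169 and 174 CPM in the spiny mouse, lower than DMSO in all 3.

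Genes for rebuilding chromatin behind the fork were lower with the inhibitors by medians of -0.17, -0.41 and -0.36. Uhrf1, which guides the maintenance methylase to new DNA, was at 42.4 CPM with DMSO, 35.1 with the ERK inhibitor, 31.8 with the ErbB2 inhibitor, 27.3 with the FGFR inhibitor, and 26.7 and 37.9 CPM with PBS and growth factor beads. Dnmt1, that methylase, gave -0.17, -0.53 and -0.51, and 0.30 with the beads. Chaf1a, of the factor that deposits histones, gave -0.54, -0.45, -0.37 and 0.47, each with an interval on 1 side of 0, whereas its partner Chaf1b gave -0.14, -0.28, -0.17 and 0.17 with only the second interval clear of 0. Atad2, a chromatin ATPase, was 1 of the 2 members lower by 1.5-fold with the ERK inhibitor, at 37.8 CPM against 59.8, a log2 ratio of -0.64 (-0.997 to -0.34). Slbp gave 138, 146, 130 and 111 CPM in the spiny mouse and 93.6 and 95.5 CPM in the mouse, lower than DMSO with the FGFR inhibitor by -0.32 and barely with the ErbB2 inhibitor, at -0.09 (-0.17 to -0.01). Hells, a remodelling helicase, gave 0.11, -0.35 and -0.36.

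The 2 E-type cyclins, which switch cells into S phase, went different ways. Ccne1 was at 19.4 CPM in basal cells with DMSO, 15.04 with the ERK inhibitor, 11.3 with the ErbB2 inhibitor and 9.19 with the FGFR inhibitor. Its log2 ratios of -0.78 (-1.04 to -0.53) and -1.07 (-1.42 to -0.76) were the lowest of the 39 members with the ErbB2 and the FGFR inhibitor. Ccne2 was at 4.41, 10.0, 3.88 and 4.04 CPM, on 109, 22, 58 and 40 UMIs, so that only the ERK inhibitor library stood apart, by 1.24 (0.45 to 1.86), the highest of the 39 there. In the mouse Ccne1 gave 6.89 and 6.87 CPM, while Ccne2 was the lowest of the members with growth factor beads, at 9.36 against 13.6 CPM, a log2 ratio of -0.53 (-1.09 to -0.01). E2f1, one of the E2F factors that drive such genes, was at 22.7, 28.7, 17.9 and 22.2 CPM in the spiny mouse, with an interval clear of 0 only for the ErbB2 inhibitor at -0.34. Clspn, an adaptor of the replication checkpoint, was lower with the ErbB2 inhibitor by -0.50 and with the FGFR inhibitor by -0.67, and gave -0.17 (-0.47 to 0.09) with the ERK inhibitor.

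On the GRCm38 build these genes lie apart from each other. Ccne1 lies on chromosome 7 at 38097984 to 38107534 (minus strand), Ccne2 on chromosome 4 at 11191351 to 11204779 (plus strand) and Rfc3 on chromosome 5 at 151642756 to 151651242 (minus strand). Mcm2 lies on chromosome 6 at 88883474 to 88898780 (minus strand), Cdt1 on chromosome 8 at 122568015 to 122573554 (plus strand) and Mcm10 on chromosome 2 at 4989714 to 5012791 (minus strand). Counts are 3′ tags per whole gene, so neither exons nor transcript forms are separated.

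In suprabasal keratinocytes the members were low, and their ratios with the inhibitors were further from 0. Under the ErbB2 inhibitor 23 of 34 measured members were lower and 0 higher (beside 13.9% and 6.27% of 9748 genes), with a median of -0.78. The FGFR inhibitor gave 25 lower and 0 higher of 34 (beside 11.9% and 4.96% of 9395 genes), with a median of -0.88. The ERK inhibitor gave 16 lower and 1 higher of 33 (beside 13.4% and 11.9% of 8836 genes), with a median of -0.56. Only 10 of these 33 had an interval wholly below 0. The ERK inhibitor library held 124 suprabasal cells against 2250 with DMSO, so members passed the UMI filter mainly through DMSO. Its count of lower members therefore describes and supports nothing by itself. Tk1 was at 24.1 CPM with DMSO and at 4.32, 8.19 and 8.80 CPM with the ERK, ErbB2 and FGFR inhibitors. Tyms was at 13.9 CPM with DMSO and at 2.16, 5.25 and 5.80 CPM. The ERK inhibitor values of Tk1 and Tyms rest on few UMIs in 124 cells. The mitosis list was also higher in suprabasal cells with DMSO, at 578 CPM against 314 to 340 CPM with the inhibitors, and the part of stray RNA in either list was not tested. With FGF2 and NRG1 beads 1 was lower and 2 higher of 28 (beside 4.87% and 3.58% of 10195 genes), with a median of 0.10.

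Other genes of the replication machinery, 55 that are not members, had medians nearer to 0 in the inhibitor comparisons. They were -0.04, -0.15 and -0.26 with the ERK, ErbB2 and FGFR inhibitors and 0.19 with the beads. By 1.5-fold, 4 of 54 measured lay lower and 2 higher under ERK inhibition, 3 and 2 of 54 with the ErbB2 inhibitor, 5 and 1 of 54 with the FGFR inhibitor, and 0 and 2 of 55 with the beads. Over all genes the shares lower and higher in these basal comparisons were 11.1% and 14.6%, 7.29% and 7.54%, 6.74% and 3.91%, and 4.12% and 4.15%. Timeless, a fork protection factor, was at 22.3 CPM with growth factor beads and 11.9 with PBS beads, and Ticrr, which activates the helicase, at 11.2 and 5.71 CPM. Pold4, the small subunit of a polymerase, was higher with the ErbB2 inhibitor, at 91.4 against 58.6 CPM.

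The mitosis genes gave basal medians of -0.39, -0.41, -0.25 and 0.24. By 1.5-fold, 12 of 38 measured lay lower and 1 higher under ERK inhibition, 5 and 0 with the ErbB2 inhibitor, 0 and 0 with the FGFR inhibitor, and 0 and 0 of 40 with the beads, beside the same shares of all genes, which for the ERK inhibitor are 11.1% lower and 14.6% higher. Ube2c, which tags mitotic proteins for destruction, was at 168 CPM with DMSO, 82.5 with the ERK inhibitor and 97.6 with the ErbB2 inhibitor. Pttg1, which delays the parting of sister chromosomes, was at 145 CPM with DMSO and at 73.8 and 80.7 CPM. The replication members gave 2 lower and 3 higher in the ERK inhibitor comparison against 12 lower and 1 higher for mitosis genes, and this difference between lists was not tested.

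Regulators of the step into S phase, 28 genes, had basal medians near 0, at 0.03, 0.07, 0.08 and 0.13. Ccnd1, the D-type cyclin that receives growth factor signals, was at 195 CPM in basal cells with DMSO, 121 with the ERK inhibitor and 124 with the ErbB2 inhibitor, log2 ratios of -0.69 (-0.88 to -0.51) and -0.65 (-0.73 to -0.58). Myc, a growth-promoting transcription factor, was at 27.6 CPM with DMSO and 81.1 with the ERK inhibitor, a log2 ratio of 1.56 (1.31 to 1.80). Rb1, the retinoblastoma protein that holds E2F factors back, was at 12.3, 24.6 and 18.0 CPM with DMSO, the ERK inhibitor and the ErbB2 inhibitor. With growth factor beads the cycle inhibitor Cdkn1a was at 28.3 CPM against 42.5 with PBS beads.

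Outside the keratinocytes the median of the members was below 0 in most types with at least 10 members measured: in 10 of 10 with the ErbB2 inhibitor, 8 of 9 with the FGFR inhibitor, 3 of 4 with the ERK inhibitor and 5 of 7 with FGF2 and NRG1 beads. The exceptions were hair germ and outer bulge cells with the ERK inhibitor (0.13) and cluster 32 with the FGFR inhibitor (0.08). With the beads they were cluster 32 (0.72) and cluster 6 (0.15). T-cells with the ErbB2 inhibitor had a median of only -0.02. The counts of types cover only members with at least 30 UMIs over both libraries. In the inhibitor comparisons most members reached this through the DMSO library, which was the larger in most types. In the bead comparison the growth factor library had more cells in most types. The counts therefore describe and support nothing by themselves.

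In endothelium 20 of 29 members were lower and 1 higher under the ERK inhibitor (beside 18.6% and 33.3% of 6990 genes), with a median of -1.26 on 91 member UMIs in 44 cells. The helicase gene Mcm5 and Uhrf1 had 0 UMIs there against 63 and 61 with DMSO, and so passed the filter only through the 977 DMSO cells. Keratinocyte marker UMIs were also more frequent in endothelium with DMSO, as given above, and their part in these ratios was not tested. Under the ErbB2 inhibitor 15 of 30 were lower and 1 higher (beside 8.25% and 10%), under the FGFR inhibitor 11 of 31 and 0 (beside 9.47% and 15.2%), and with growth factor beads 4 of 30 and 4 (beside 9.86% and 4.41%). The 1 higher with the ErbB2 inhibitor was Rfc3, at 28.8 against 17.7 CPM.

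Sebaceous gland cells gave medians of -0.34, -0.40 and -0.43 with the ERK, ErbB2 and FGFR inhibitors and -0.29 with the beads. By 1.5-fold 10 of 32 members were lower and 2 higher under the ERK inhibitor (beside 9.69% and 18.3%), 9 of 35 and 1 under the ErbB2 inhibitor (beside 8.31% and 3.76%), 12 of 34 and 1 under the FGFR inhibitor (beside 8.23% and 3.5%), and 5 of 26 and 0 with the beads (beside 5.15% and 4.86%). Clspn was the lowest member in all 3 inhibitor comparisons, at 12.7 CPM with DMSO and 3.83, 5.54 and 5.73 CPM with the inhibitors. Rfc3 was again the highest in all 3, at 7.0 CPM with DMSO and 12.7, 10.8 and 11.9 CPM, with log2 ratios of 0.98 (-0.27 to 1.84), 0.61 (0.15 to 1.11) and 0.77 (0.20 to 1.33). The same DMSO count of 59 UMIs enters each of these ratios.

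Cluster 6, labelled as resident macrophages, had 1 macrophage marker and 2 dendritic cell markers among its leading genes. All 14 members measured in it were lower under the ERK inhibitor and 0 higher (beside 21.1% and 24.9% of 5183 genes), with a median of -1.29. The cluster had only 33 cells in the ERK inhibitor library against 410 with DMSO, so members passed the UMI filter mainly through their DMSO counts. That filter favours members that are high with DMSO, so the count of 14 describes and supports nothing by itself. Under the ErbB2 inhibitor 11 of 19 were lower and 1 higher (beside 9.62% and 12.3%), under the FGFR inhibitor 5 of 14 and 0 (beside 12.4% and 14.6%), and with the beads 0 of 20 and 6 (beside 9.33% and 11.4%). Keratinocyte markers took 3.05% of the UMIs of that cluster with DMSO, 2.22% with the ErbB2 inhibitor, 1.22% with the FGFR inhibitor and 0.0691% with the ERK inhibitor, and their part in the member ratios was not tested.

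Chondrocytes, the cartilage cells, gave medians of -0.52 with the ErbB2 inhibitor, -0.83 with the FGFR inhibitor and -0.37 with the beads. There 7 of 14 members were lower and 0 higher under the ErbB2 inhibitor (beside 10.6% and 13.5%), 9 of 14 and 0 under the FGFR inhibitor (beside 11.7% and 12.8%), and 11 of 29 and 2 with the beads (beside 26.6% and 13.8%). Tk1 was at 69.1 CPM with DMSO and at 19.5 and 19.8 CPM with these inhibitors.

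Fibroblasts of cluster 32 gave the highest median of any type in the growth factor comparison. With FGF2 and NRG1 beads their members summed to 1159 CPM in 153 cells and with PBS beads to 651 CPM in 32 cells. Of 27 members measured 16 were higher and 1 lower, beside 17.8% and 29.1% of genes, with a median log2 ratio of 0.72. Only 8 of the 27 had a counting interval wholly above 0. The growth factor library held 2200 member UMIs, so members passed the UMI filter mainly through its counts. That filter favours members that are high with growth factors, so the count of 16 describes and supports nothing by itself. The PBS value rests on 136 member UMIs, of which 44 came from 1 cell, and without that cell the median was 1.25 with 21 higher. The median over cells was 508 CPM with growth factors and 516 with PBS beads, while the mean over cells was 886 against 591, and the cells held a median of 11177 against 4203 UMIs. In the spiny mouse the same cluster had 3 of 29 members lower and 2 higher under the ErbB2 inhibitor (beside 8.08% and 11.6%), and 2 of 24 lower and 4 higher under the FGFR inhibitor (beside 9.3% and 11.9%). Replication-high cells numbered 6 of 153 with growth factor beads and 1 of 26 with PBS beads, so the higher summed level did not go with a detectably higher share, and the spiny mouse libraries had 6 of 156 with DMSO, 10 of 131 with the ErbB2 inhibitor and 3 of 36 with the FGFR inhibitor.

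Cluster 7, labelled as circulating monocytes but led by neutrophil markers, is a case where 1 gene made up most of a list. Its member level was low, at 700 CPM with DMSO, 104 with the ERK inhibitor, 439 with the ErbB2 inhibitor, 376 with the FGFR inhibitor, and 458 and 451 CPM in the mouse. Its mitosis level was high, at 3453, 6998, 4118 and 5749 CPM in the spiny mouse. Hmgb2, a chromatin protein that is in the mitosis list and is also abundant in immature blood cells, made up 79.9 to 95.4% of those UMIs in the spiny mouse and 47.7 and 50% in the mouse. Without Hmgb2 the mitosis level of the cluster was 319 to 694 CPM in the spiny mouse. In basal keratinocytes Hmgb2 made up 14.3 to 25.4% of the mitosis UMIs, and without it the mitosis-only share was 18.4% with DMSO, 6.90% with the ERK inhibitor, 9.15% with the ErbB2 inhibitor and 12.2% with the FGFR inhibitor.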

How the data were processed

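The deposited table holds raw UMI counts of the authors for every gene in every cell, made with 10x Genomics 3′ reagents per the labels' protocols and Cell Ranger 6.1.1 per the submitters' processing notes, which also name the mouse build GRCm38 (mm10). Which reference the spiny mouse reads were aligned to is not given in the sources used here. A second deposited table gives each cell's library, cluster and type, with quality values in percent per the file headers. Doublets were not called, and whether the authors removed them is not given in the sources used here.

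UMIs were summed per library and class. Log2 ratios of CPM used a pseudocount of 1 UMI, at least 30 UMIs over both libraries and a call at 1.5-fold; they understate differences of low genes. Intervals at 95% are exact Poisson for levels, exact conditional binomial for ratios and Clopper-Pearson for shares; that of a ratio of shares is approximate. UMIs are molecules, and all intervals printed cover counting error only. In the closing section medians were set against an interval from the ranked ratios of the members, which shows spread among genes. Cells under 2000 UMIs (18.7 to 39.7% per library) were left out of thinned shares; near the cutoff means 7 or 8 UMIs. TMM scaling came from edgeR 4.0.16, with no edgeR test. The ratio step was tested on simulated data. Cell types are the authors'; a cluster was set apart when its 10 leading genes held more markers of another of 18 marker lists than of its own.

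The members, lists and tests were chosen with earlier results of these data known. The split into basal and suprabasal cells, the clusters set apart and clusters 30 and 22 were chosen after values were seen. Named were the 6 highest and 6 lowest members per comparison in epidermal keratinocytes and Mcm2, Mcm5, Mcm6, Pcna, Tyms, Rrm2, Cdc6, Cdt1, Ccne1, Ccne2, E2f1, Uhrf1, Dnmt1 and Slbp, with examples from other types and lists; further members were added by role. A planned look at promoter sequences was not made. Alternatives are in the closing section. Coordinates are from GENCODE vM21.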

Additional observations from a re-analysis of the deposited data

How the results depend on the processing

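No paired analysis was possible because each group was 1 library, and leaving out a replicate was not possible either. The median log2 ratios of the members moved with cell composition and with how cells were weighted. With every cluster weighted as in the control library, the epidermal medians were -0.0148, -0.17, -0.32 and 0.12 for the ERK, ErbB2 and FGFR inhibitors and the growth factor beads, and the basal medians 0.00236, -0.13, -0.27 and 0.0916. Cluster weighting can also take out a difference in the number of replicating cells, since some clusters are formed from these same genes. With the 2 layers weighted as in DMSO, an alternative added after seeing the data, the epidermal medians were -0.17, -0.37 and -0.38 with the inhibitors. With the mean over cells of CPM, the epidermal medians were -0.58 (ERK), -0.87 (ErbB2) and 0.0473 (beads), and the basal ones -0.56 (ErbB2), -0.45 (FGFR) and 0.15 (beads). TMM scaling gave epidermal medians of -0.58 for both the ErbB2 and the FGFR inhibitor, and centring on all genes -0.58 for the former. Without thinning, the log2 ratio of basal replication-high shares for the ErbB2 inhibitor was -0.50. The other 95 such values, over further pseudocounts, filters, cutoffs and depths, stayed within the 95% interval of the value reported. For ratios of shares this was the counting interval. For medians it was an interval from the ranked ratios of the members, which shows spread among genes and not counting error. The cause of these shifts was not tested. Of these medians only the basal one for the ERK inhibitor changed sign, at 0.00236 with clusters weighted.

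Counts of members past 1.5-fold depended on these choices. Lower members in the whole epidermis ran from 1 to 19 with the ERK inhibitor, 0 to 29 with the ErbB2 inhibitor and 3 to 27 with the FGFR inhibitor, and in basal cells from 0 to 19 with the ErbB2 inhibitor and 2 to 8 with the FGFR inhibitor. Members higher with growth factor beads ran from 1 to 6 in the epidermis, 1 to 5 in basal cells and 6 to 21 in fibroblasts of cluster 32, where the median ran from 0.48 to 1.25. The log2 ratio of basal shares for the beads ran from -0.11 to 0.46. Depth limits the rare members most: Mcm10, Cdc6 and Rfc2 had 5 to 15 UMIs in basal cells of the ERK inhibitor library.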
